A study of Mus musculus with 37 samples.

Results

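The comparison covered 11 of the 37 mice of the study, chosen by treatment label and day alone: the 6 mice labelled PLX+PTX and the 5 labelled WTNT, all at d105. T cell receptor beta (TRB) rearrangements were read from lymph node genomic DNA, 1 library per mouse, and the 11 tables listed 740210 clonotypes, 403871 in PLX+PTX and 336339 in WTNT. PLX+PTX mice were females carrying MMTV-PyMT, a transgene in which a mammary tumor virus promoter drives the polyoma middle T oncogene in mammary epithelium. They were given PLX3397 (pexidartinib, an inhibitor of the macrophage growth factor receptor CSF1R) in chow at 40 mg/kg/day from 80 days of age and PTX at 10 mg/kg every 5 days from 85 days. The protocol adds aPD-1 or an isotype antibody from 87 days, and the labels do not say whether the PLX+PTX mice received the isotype antibody. WTNT mice had the genotype FVBN without the transgene. Their group name is not spelled out, no agent is listed for them, and the labels do not state that they were free of tumors. The transgene, the agents and the origin of the mice differed together between the groups and cannot be told apart. Which lymph node was taken is not stated.

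Each T cell clone carries a beta chain assembled in the thymus from a variable (TRBV), a diversity (TRBD) and a joining (TRBJ) segment. Bases are trimmed and added at the joints, and the junction encodes the third complementarity-determining region (CDR3), which touches the antigen peptide. Most CDR3s are rare, whereas those needing few added bases arise again and again and are found in many mice. Mice also differ by germline segments and by superantigens, which remove or expand T cells by their TRBV segment.

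Libraries held 1327206 to 2831566 reads in PLX+PTX and 1350579 to 1765833 in WTNT. PLX+PTX replicates 1 and 2 were the deepest, with 2831566 and 2772352 reads. In PLX+PTX, 51505 to 91867 clonotypes were listed per mouse, against 59073 to 79706 in WTNT. Reads came from PCR without molecular identifiers, so intervals and floors cover counting error only. Fewer sampled T cells and a less varied repertoire cannot be told apart in bulk DNA. Levels are percentages, or counts scaled to an equal total per library (CPM), of the authors' normalized clone count, which multiplies reads by a factor fixed for each V and J pair. The factor ranged widely. It was 75.6 for TRBV26 TRBJ2-3, 18.4 for TRBV4 TRBJ2-4, 6.93 for TRBV4 TRBJ2-7 and 0.6996 for TRBV13-2 TRBJ2-5.

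The results turned on 7 clonotypes, shown here by the most read nucleotide form of the CDR3, 5′ to 3′. Capitals mark the bases between the end of the V segment and the start of the J segment in the deposited alignment. The first 3 share TRBV4 and TRBJ2-7 and hold at most 1 base between the segments. The fourth was the sole shared clonotype that limma called different on normalised counts. The fifth had the lowest p among shared clonotypes lower in PLX+PTX. The sixth held the highest normalised share of any library and the seventh the most reads.
TRBV4 TRBJ2-7 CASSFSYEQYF: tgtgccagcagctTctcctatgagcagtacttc
TRBV4 TRBJ2-7 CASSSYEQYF: tgtgccagcagctcctatgagcagtacttc
TRBV4 TRBJ2-7 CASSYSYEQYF: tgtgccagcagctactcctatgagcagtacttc
TRBV4 TRBJ2-4 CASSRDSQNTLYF: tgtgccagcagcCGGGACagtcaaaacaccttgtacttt
TRBV4 TRBJ2-7 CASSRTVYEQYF: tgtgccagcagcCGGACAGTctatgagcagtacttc
TRBV26 TRBJ2-3 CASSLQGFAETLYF: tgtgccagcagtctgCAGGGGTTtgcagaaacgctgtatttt
TRBV13-2 TRBJ2-5 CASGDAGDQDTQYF: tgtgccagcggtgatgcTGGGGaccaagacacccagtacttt

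Expanded clonotypes, each with at least 0.1% of a library, held more of the normalised counts in PLX+PTX than in WTNT, although no measure of repertoire shape passed the threshold after adjustment over the 13 measures. Their share was 0.289, 0.517, 0.685, 0.378, 0.244 and 0.524% in PLX+PTX replicates 1 to 6. It was 0.223% in WTNT replicate 1, 0.205% in replicate 4 and 0% in the other 3 WTNT mice. The groups did not overlap. The means were 0.440% ± 0.166 (SD, n = 6) and 0.0857% ± 0.118 (n = 5; exact permutation p = 0.00433, 2-sided, adjusted p = 0.0563). The smallest p that regrouping these 11 mice can give is 0.00216. The share depended on the authors' factor, since in raw reads it was 0.182% ± 0.244 in PLX+PTX and 0.249% ± 0.357 in WTNT, the other direction. TRBV13-2 TRBJ2-5 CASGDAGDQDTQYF alone held 0.649 of the 0.773% of reads in WTNT replicate 4 and 0.229 of the 0.471% in replicate 2. It was also the whole 0.205% of normalised counts in WTNT replicate 4. TRBV13-2 lies in a known deletion of FVB/N, and the share without this clonotype was not computed. Counted without TRBV26 TRBJ2-3, a repeat chosen after the data were seen, the share of normalised counts was 0.371% against 0.0420% (exact permutation p = 0.0108).

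Most expanded clonotypes of PLX+PTX were TRBV4 TRBJ2-7 receptors. The limit of 0.1% was passed 15 times in PLX+PTX, in 6 of 6 mice and by 11 distinct clonotypes, and 10 of the 15 were TRBV4 TRBJ2-7. In WTNT it was passed 3 times, in 2 of 5 mice, and 0 of these nucleotide forms were TRBV4 TRBJ2-7. Merged by amino acid CDR3, TRBV4 TRBJ2-7 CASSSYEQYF ranged from 763 to 2017 CPM in PLX+PTX and from 902 to 1548 CPM in WTNT. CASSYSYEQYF ranged from 374 to 1327 CPM and from 706 to 1057 CPM. Merged so, both passed 0.1% in mice of each group, and the expanded share was not recomputed on merged clonotypes. As a single nucleotide form, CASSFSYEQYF passed the limit in PLX+PTX replicates 1, 2, 3 and 5. PLX+PTX replicates 4 and 6 were led instead by TRBV4 TRBJ2-7 clonotypes of 15 residues, with 0.226 and 0.282% of normalised counts, and each was absent from the other 10 libraries. The highest single share, 0.556%, was that of TRBV26 TRBJ2-3 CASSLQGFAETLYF in PLX+PTX replicate 3, which rested on 302 reads or 0.0167% of reads (95% Wilson interval 0.0149 to 0.0187). Ranked by reads instead, the limit was passed 7 times in 3 of 6 PLX+PTX mice and 5 times in 2 of 5 WTNT mice, and 0 of these clonotypes were TRBV4 TRBJ2-7.

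**Figure D1:**
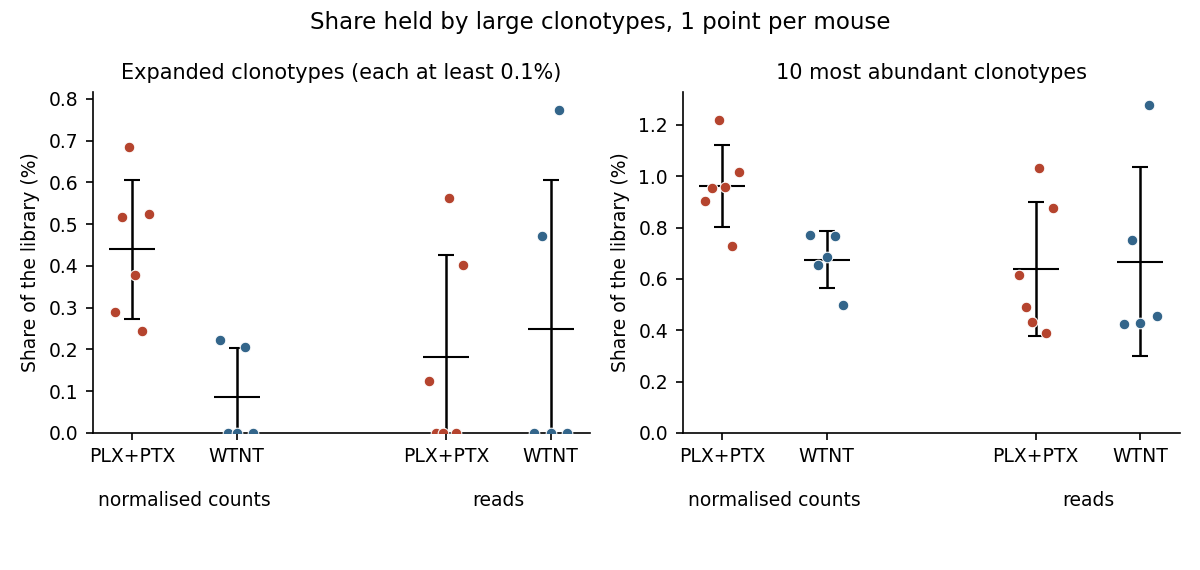
Percent of each library held by expanded clonotypes (left) and by the 10 most abundant clonotypes (right), from normalised counts and from reads; each point is a mouse, the horizontal line the mean and the bar the SD, cut off at 0 (n = 6 PLX+PTX, n = 5 WTNT). Each nucleotide form counts as its own clonotype. The groups are apart for expanded clonotypes in normalised counts, from 0.244% upward against 0.223% downward, and overlap in reads.

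The 10 most abundant clonotypes held 0.902, 0.952, 1.22, 0.959, 0.728 and 1.02% of normalised counts in PLX+PTX, and 0.772, 0.655, 0.684, 0.768 and 0.496% in WTNT. Only PLX+PTX replicate 5 lay within the WTNT range. The means were 0.963% ± 0.160 and 0.675% ± 0.112 (exact permutation p = 0.00866, adjusted p = 0.0563), and 0.640% against 0.668% in reads, again turned round. Clonality, which runs from 0 for equal clonotypes to 1 for a single one, was 0.0592 ± 0.0044 in PLX+PTX and 0.0551 ± 0.0018 in WTNT (exact permutation p = 0.0476, adjusted p = 0.155). In reads the values were 0.0502 against 0.0452. The difference of 0.00409 was 0.00244 without PLX+PTX replicate 2, the mouse of highest clonality, and 0.00130 among clonotypes with at least 10 reads. Richness, the number of clonotypes after thinning each library to 1327206 reads, was 62067 ± 13676 and 65382 ± 6747 (exact permutation p = 0.658). PLX+PTX held both extremes of richness, 43196 in replicate 2 and 85693 in replicate 4.

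Of the clonotypes shared by several mice, TRBV4 TRBJ2-4 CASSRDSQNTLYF was called higher in PLX+PTX by limma on normalised counts. Most of its 18 alternative fits did not call it. It had 290, 245, 14, 6, 49 and 89 reads in PLX+PTX replicates 1 to 6 and 0 reads in each of the 5 WTNT mice. The PLX+PTX mean was 413 CPM ± 360, at least 25.0-fold higher than the WTNT floor of 3 reads per library, and the log2 difference on the scale of CPM + 10 was 4.62 ± 0.78 (SE; limma adjusted p = 0.0153). It had 4 nucleotide forms over the 11 libraries and was found in 4 of the 12 other d105 mice. All 12 carried MMTV-PyMT, so they give no further comparison with mice without the transgene. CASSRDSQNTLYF was the only clonotype called among 7049 found in at least 6 of the 11 libraries (0.0142%), while 408 had an unadjusted p under 0.05. It reached 6 libraries through the PLX+PTX mice alone. With 5 WTNT mice, a clonotype read only in WTNT could not reach 6 libraries, so this fit left out the reverse case. The fit from 3 libraries on admitted it and called 0 of 35013 clonotypes, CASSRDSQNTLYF included. The call was lost in limma without a trend of the variance on the mean (adjusted p = 0.0895), in edgeR, on raw reads scaled to CPM (log2 difference 2.15, limma adjusted p = 0.703), after thinning (2.12, adjusted p = 0.693) and among clonotypes of at least 3 libraries (adjusted p = 0.405). It was also lost without PLX+PTX replicate 1 or 2 or without WTNT replicate 1, 3, 4 or 5, in fits that tested 9056 to 9771 clonotypes. It was found in too few libraries to be tested in the fit of all 23 d105 libraries, among clonotypes of at least 80% of the libraries, or in either mouse-number range alone. Over its 18 alternative fits the adjusted p ran from 0.000822 to 1.00, with 7 calls.

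TRBV4 TRBJ2-7 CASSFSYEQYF, the leading clonotype of PLX+PTX replicates 1 and 2, was read in every PLX+PTX mouse and in 3 of 5 WTNT mice. Its level was 1781, 1766, 1292, 657, 1075 and 834 CPM in PLX+PTX and 832, 0, 446, 0 and 358 CPM in WTNT. Only PLX+PTX replicate 4 lay below the highest WTNT mouse. The means were 1234 CPM ± 470 and 327 CPM ± 348, and the log2 difference of 3.44 ± 0.84 (SE) did not pass in limma over all shared clonotypes (adjusted p = 0.368). On raw reads and on thinned reads, both scaled to CPM, limma with a variance trend called it at log2 differences of 2.80 and 2.79 (adjusted p = 0.000132 and 1.60e-06). Over its 22 alternative fits the adjusted p ran from 1.60e-06 to 1.00, with 2 calls. All 12 other d105 mice held it too. A single nucleotide form, with 1 base between the segments, made up 96.2% of its reads.

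Its near relatives overlapped between the groups. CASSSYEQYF, whose most read form has no base between V and J, was read in all 11 mice at 1252 CPM ± 460 in PLX+PTX and 1230 CPM ± 251 in WTNT (log2 difference -0.02, limma adjusted p = 0.996). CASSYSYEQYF, likewise without an added base in its most read form, was at 768 CPM ± 315 and 885 CPM ± 142 (log2 difference -0.28, limma adjusted p = 0.970). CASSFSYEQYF was also summed with the clonotypes of the same segments and length that differ from it in 1 residue. Together they held between 0.283 and 0.595% of normalised counts in PLX+PTX and between 0.197 and 0.433% in WTNT. The sum without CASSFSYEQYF itself was not computed. The whole TRBV4 TRBJ2-7 pair held 9.81% ± 0.73 and 9.63% ± 0.60.

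**Figure D2:**
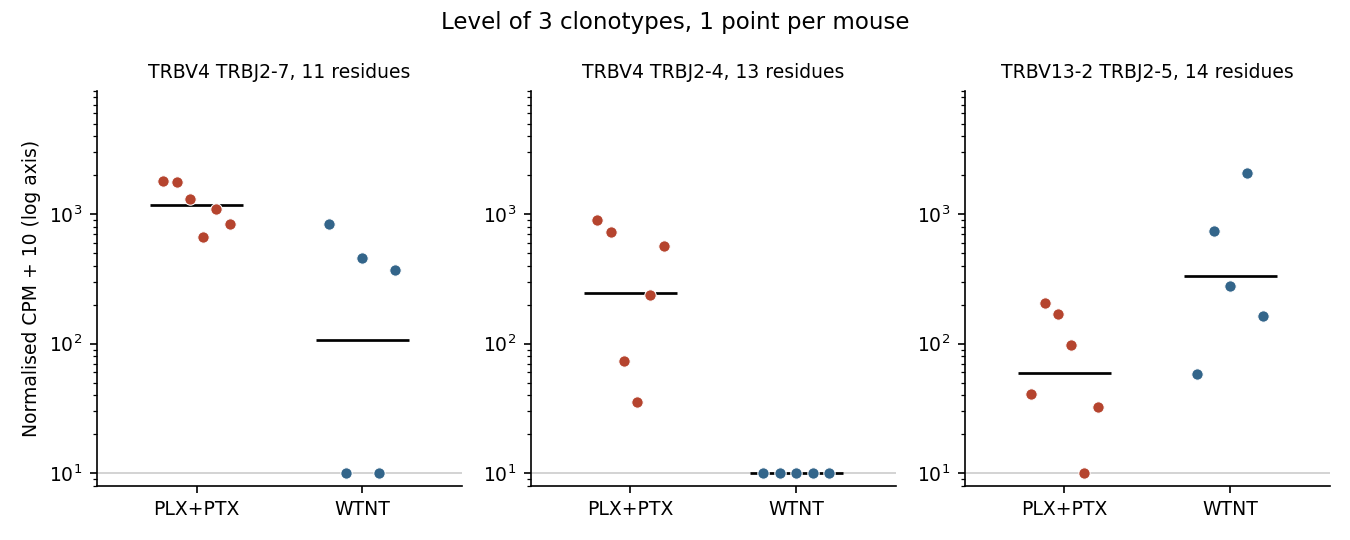
Normalised CPM plus 10, on a log axis, of TRBV4 TRBJ2-7 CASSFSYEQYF (11 residues), TRBV4 TRBJ2-4 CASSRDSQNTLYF (13 residues) and TRBV13-2 TRBJ2-5 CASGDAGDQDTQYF (14 residues); each point is a mouse, the black line the mean of the log values, and points at 10 have no read. The second clonotype is present in 6 PLX+PTX mice and 0 WTNT mice, and the third overlaps between the groups.

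Among the clonotypes tested, values on the WTNT side were led by TRBV4 TRBJ2-7 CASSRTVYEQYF. It had 36, 63, 121, 65 and 167 reads in the WTNT mice, 47 and 31 reads in PLX+PTX replicates 3 and 4, and 0 in the other 4 PLX+PTX mice. The log2 difference was -3.16 ± 0.74 (SE; limma adjusted p = 0.278). PLX+PTX replicates 3 and 4 carry mouse numbers of a higher range than the other 4, and against those 4 alone limma called this clonotype (-4.11, adjusted p = 0.0320), while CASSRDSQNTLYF was not tested there. This was the 1 call of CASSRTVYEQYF in 21 alternative fits, whose adjusted p ran from 0.0320 to 1.00. TRBV20 TRBJ2-1 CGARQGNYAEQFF was read in 5 of 5 WTNT mice and in PLX+PTX replicate 3 alone (log2 difference -2.43, limma adjusted p = 0.278). A 15-residue TRBV2 TRBJ2-7 clonotype came next (-2.26, adjusted p = 0.527). Higher in PLX+PTX, and not passing, were TRBV4 TRBJ2-7 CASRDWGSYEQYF at 3.15 and TRBV3 TRBJ2-5 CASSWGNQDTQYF at 2.62 (limma adjusted p = 0.278 each). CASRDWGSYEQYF was called in 2 of 18 alternative fits, in DESeq2 (adjusted p = 0.0103) and in limma without PLX+PTX replicate 6 (3.79, adjusted p = 0.0397), and the adjusted p reached 1.00. Of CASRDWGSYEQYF the PLX+PTX mice had 50, 274, 131, 60, 62 and 0 reads and the WTNT mice 1 read in all.

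Most clonotypes were found in a single mouse. Of 511753 clonotypes merged by V, J and amino acid CDR3, 429791 (84.0%) were found in 1 library, 56745 (11.1%) in both groups and 374 in all 11 mice. Private clonotypes held 50.1 to 53.6% of normalised counts in PLX+PTX and 49.8 to 52.2% in WTNT. There were 9 clonotypes in 6 of 6 PLX+PTX and 0 of 5 WTNT mice, and 8 in 5 of 5 WTNT and 0 of 6 PLX+PTX mice; after thinning these were 5 and 7. Besides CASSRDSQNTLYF the former included TRBV26 TRBJ1-2 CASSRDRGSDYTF, with 1 to 303 reads, and TRBV3 TRBJ1-1 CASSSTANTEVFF, with 20 to 72. Among the latter were TRBV4 TRBJ2-2 in 15 residues, with 50 to 120 reads, TRBV19 TRBJ1-3 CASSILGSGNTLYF, with 13 to 46, and TRBV1 TRBJ1-6 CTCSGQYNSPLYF, with 19 to 39. Public clonotypes, those of at least 6 of the 12 other d105 mice, held 13.1% ± 0.5 of normalised counts in PLX+PTX and 13.1% ± 0.2 in WTNT (exact permutation p = 0.963).

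By amino acid CDR3, pairs of WTNT mice were slightly more alike than mixed pairs, whereas pairs of PLX+PTX mice stood about level with mixed pairs. The Morisita-Horn index, which is 1 for identical and 0 for disjoint repertoires, averaged 0.217 over 15 pairs of PLX+PTX mice, 0.238 over 10 pairs of WTNT mice and 0.215 over 30 mixed pairs. The mean within groups exceeded that between groups by 0.00965 (exact permutation p = 0.0260). In raw reads the 3 averages were 0.189, 0.236 and 0.190, and the excess was 0.0182 (exact permutation p = 0.0303). By nucleotide CDR3 the averages were 0.101, 0.0956 and 0.0834, so that both groups lay above mixed pairs. The excess there was 0.0154 (exact permutation p = 0.00433). Without any 1 of the WTNT mice the excess by amino acid CDR3 was 0.00460 to 0.0110, with exact permutation p-values of 0.138 to 0.543. It was lower by over 1.5 times without WTNT replicate 2 (0.00558) or 4 (0.00460) and higher by over 1.5 times without PLX+PTX replicate 4 (0.0147). The nucleotide value was not recomputed without single mice. TRBV13-2 TRBJ2-5 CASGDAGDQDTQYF ranged from 48.1 to 2051 CPM in WTNT and from 0 to 194 CPM in PLX+PTX. It was highest in WTNT replicates 4 and 2, at 2051 and 733 CPM. TRBV13-2 lies in a known deletion of FVB/N, and the index without this clonotype was not computed. The Jaccard index of thinned libraries, which ignores abundance, differed by 0.000419 (exact permutation p = 0.359).

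No V or J segment differed in normalised counts after adjustment: limma called 0 of 24 (0%). An unadjusted p under 0.05 was reached by 1 segment in limma, and on reads by 5 in edgeR and 7 in DESeq2, which likewise called 0. The 1 segment was TRBV24, a segment that some superantigens recognise. It held 8.53, 7.09, 7.24, 7.08, 7.08 and 6.94% in PLX+PTX and 7.61, 8.13, 7.89, 8.23 and 7.91% in WTNT. Replicate 1 had the highest value of all and the other 5 PLX+PTX mice lay below every WTNT mouse. The log2 difference was -0.12 ± 0.05 (SE; limma adjusted p = 0.449), and -0.17 without PLX+PTX replicate 1, where it was called (adjusted p = 0.00223). TRBV20 (-0.43) and TRBV23 (-0.13) had the next lowest unadjusted p-values among lower segments, and TRBV30 (0.15), TRBV26 (0.09) and TRBV29 (0.07) the lowest among higher ones (limma adjusted p = 0.449 each).

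The number of distinct clonotypes per segment gave another picture than their abundance. With each clonotype counted once, limma called 11 of 24 segments (45.8%), 6 higher and 5 lower in PLX+PTX. TRBV24 made up 15.7, 15.9, 15.6, 15.6, 15.4 and 15.5% of listed clonotypes in PLX+PTX and 16.2, 16.8, 16.4, 16.9 and 16.98% in WTNT, with no overlap (log2 difference -0.09 ± 0.02, SE, limma adjusted p = 0.00198). TRBV20 was lower by this count (-0.23, limma adjusted p = 0.00835), as was TRBV19 (-0.23, adjusted p = 0.0402), a segment used by MAIT cells, an invariant T cell type. TRBV29, used by some NKT cells, was higher, at 6.61% ± 0.24 against 6.13% ± 0.15 (0.11, adjusted p = 0.0195). The other higher segments were TRBV1, TRBV30, TRBV3, TRBV26 and TRBV5, at 0.05 to 0.12, and the other lower ones TRBJ2-2 (-0.05) and TRBJ1-3 (-0.08), all at adjusted p-values up to 0.0487. The count depends on depth, and PLX+PTX replicates 1 and 2 were the deepest libraries. After thinning to equal depth 9 segments were called (37.5%), 8 of them shared with the 11, and TRBV24 stood at -0.11. The calls of TRBV19 (adjusted p = 0.0675 in limma), TRBJ1-3 and TRBV30 were lost, and TRBJ2-3 was added. TRBV24, TRBV20 and TRBV29 were called without each of the 11 mice in turn, and the remaining 8 in 2 to 5 of these fits. The number of calls was 3 without PLX+PTX replicate 1 or 6 or WTNT replicate 1, 2 or 4, 4 without WTNT replicate 5, and 6 without PLX+PTX replicate 4 or WTNT replicate 3. Counting clonotypes with at least 10 reads left 3 calls, TRBV24 (-0.19) and TRBV19 (-0.26) lower and TRBV5 (0.16) higher (limma adjusted p = 0.0390 each).

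**Figure D3:**
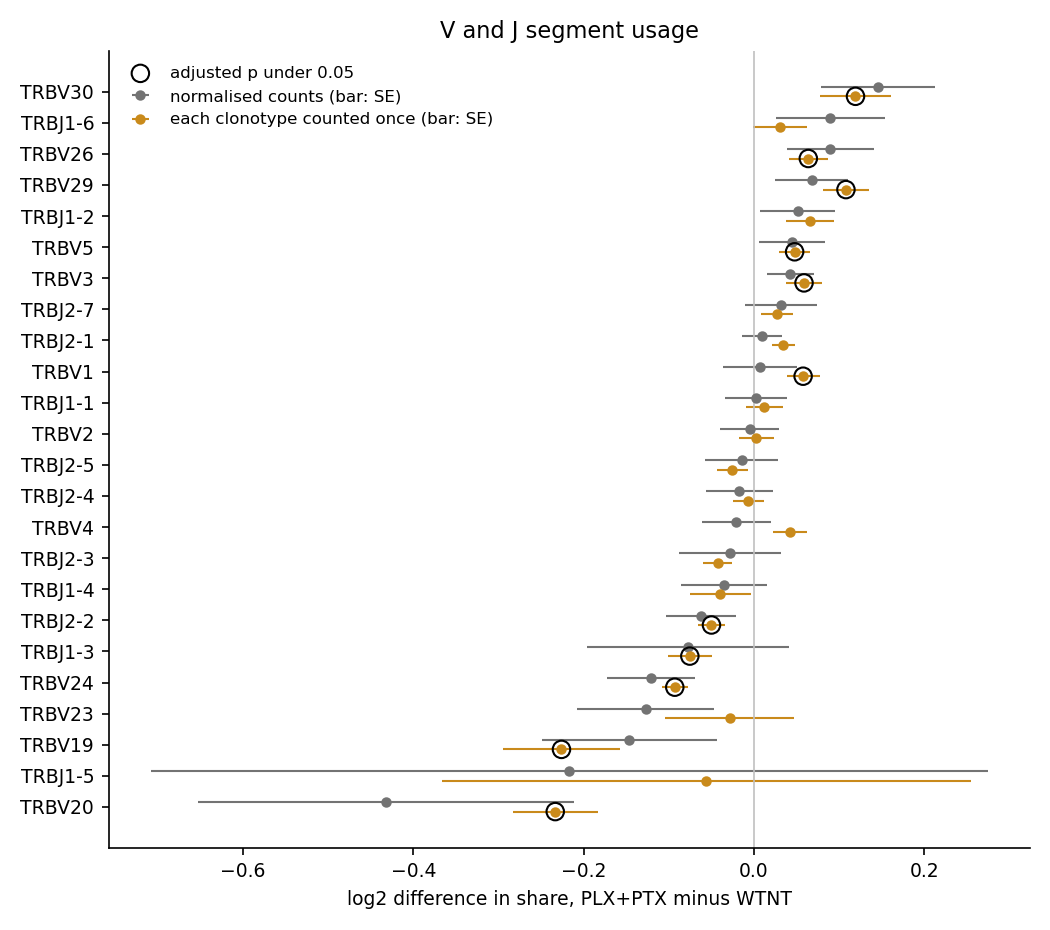
Log2 difference in the share of each V and J segment, PLX+PTX minus WTNT, from normalised counts (grey) and with each clonotype counted once (orange); bars are the SE and open circles mark an adjusted p under 0.05 in limma. The 11 circles all belong to the count of clonotypes.

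By group of segments, 5 of the 14 segments known to react with superantigens could be tested. Normalised counts gave 0 calls among them and a median log2 difference of 0.01, beside -0.01 over all 24 segments. Counted once, 3 of the 5 were higher (TRBV1, TRBV26 and TRBV29) and 2 lower (TRBV19 and TRBV24), beside 45.8% called over all segments. Their median was 0.06, beside 0.01 over all segments. After thinning 3 were higher and 1 lower. Of 6 segments known from invariant T cells 3 could be tested, with 0 calls in normalised counts, and 2 higher (TRBV1 and TRBV29) and 1 lower (TRBV19) when counted once, or 2 higher and 0 lower after thinning. In the TRBJ1 and TRBJ2 clusters, with 6 segments tested in each, 0 were called in normalised counts and 1 lower in each when counted once. The TRBJ1 cluster held 15.04% ± 0.42 of normalised counts in PLX+PTX and 14.93% ± 0.49 in WTNT. In reads it held 24.7% ± 0.3 against 23.9% ± 0.5 (exact permutation p = 0.00433, adjusted p = 0.0519). The lowest PLX+PTX mouse and the highest WTNT mouse both stood at 24.2% of reads.

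**Figure D4:**
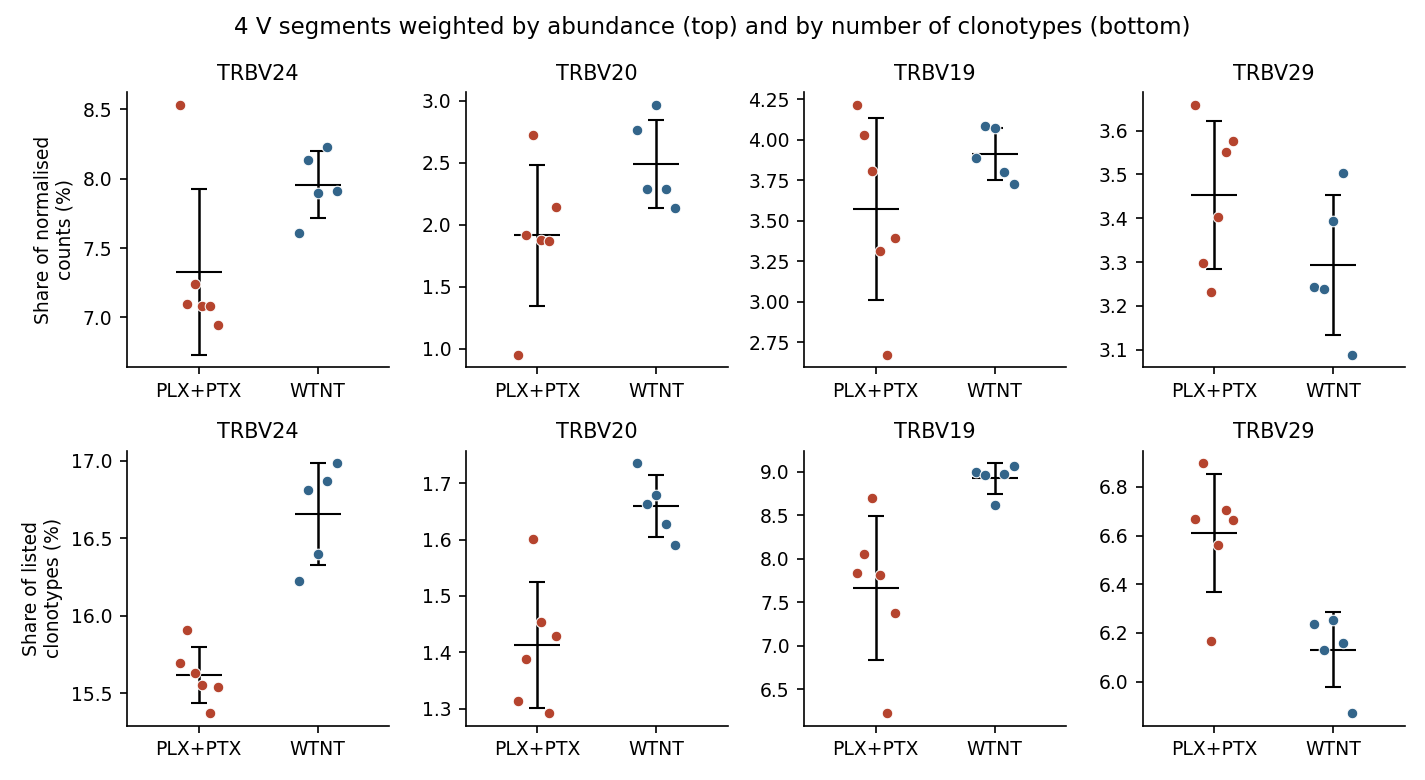
Share of TRBV24, TRBV20, TRBV19 and TRBV29 in each mouse, as percent of normalised counts (top) and as percent of listed clonotypes (bottom); points are mice, lines means and bars SD (n = 6 PLX+PTX, n = 5 WTNT), and the axes do not start at 0. TRBV24 is apart between the groups in the bottom row, at most 15.9% against at least 16.2%, and overlaps in the top row through 1 PLX+PTX mouse.

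Among pairs of V and J, limma called 0 of 104 on normalised counts (0%). Unadjusted p-values under 0.05 numbered 14 in limma, and 13 in edgeR and 14 in DESeq2, which called 0 too. Lowest in PLX+PTX by unadjusted p were TRBV20 TRBJ2-2 (-0.69), TRBV19 TRBJ2-2 (-0.26) and TRBV29 TRBJ1-3 (-0.27). Highest were TRBV26 TRBJ1-6 (0.23), TRBV26 TRBJ2-1 (0.14) and TRBV29 TRBJ2-7 (0.18), and the adjusted p was 0.290 for these 6. With each clonotype counted once 9 of 118 pairs passed (7.63%), 4 of them TRBV19 pairs lower in PLX+PTX, and after thinning 0 passed.

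The FVB/N genome has a known deletion that spans TRBV12-1 to TRBV17. None of the 9 segments on that list reached the 0.1% share needed for testing, yet reads assigned to them were present in all 11 mice. Together they held 0.00481 to 0.0317% of normalised counts in PLX+PTX and 0.00978, 0.112, 0.0378, 0.270 and 0.0223% in WTNT (means 0.0161% and 0.0904%, exact permutation p = 0.0433, adjusted p = 0.155). The difference of -0.0743 percentage points was -0.0293 without WTNT replicate 4. TRBV13-2 TRBJ2-5 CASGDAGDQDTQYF was the most read clonotype of WTNT replicates 2 and 4. It had 264, 1751, 927, 545, 0 and 95 reads in PLX+PTX and 205, 4044, 1135, 9580 and 844 in WTNT, and 9580 reads were 0.649% of that WTNT library (95% Wilson interval 0.637 to 0.663). All reads had 1 nucleotide form, and the clonotype was also found in 12 of the 12 other d105 mice. As TRBV13-2 lies in the known deletion, whether these reads came from T cells of the mice was not tested, and the values of this clonotype and of the deleted segments carry that limit. The log2 difference was -2.48 ± 0.84 (SE; limma adjusted p = 0.736), and limma with a variance trend called it on raw reads scaled to CPM (-2.82) and after thinning (-2.83), although the groups overlapped.

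CDR3 length gave 2 calls. Of 10 length classes limma called 2 (20%), both higher in PLX+PTX. CDR3s of 11 residues held 4.55, 4.60, 4.35, 4.13, 4.51 and 4.34% of normalised counts in PLX+PTX and 4.19, 4.15, 4.07, 4.12 and 3.88% in WTNT (log2 difference 0.11 ± 0.03, SE, limma adjusted p = 0.0205). Only PLX+PTX replicate 4 fell within the WTNT range. Without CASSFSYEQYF, itself 11 residues long, the means were 4.29% ± 0.14 and 4.05% ± 0.12, a difference of 0.240 percentage points in place of 0.331. CDR3s of 16 residues held 7.02% ± 0.06 in PLX+PTX and 6.81% ± 0.11 in WTNT, with no overlap (log2 difference 0.04 ± 0.01, SE, limma adjusted p = 0.0205). In reads the class of 16 residues was not called and its groups overlapped (log2 difference 0.01, limma adjusted p = 0.514), whereas 11 residues was called (0.10, adjusted p = 0.0235) together with 10 residues. Neither 11 nor 16 residues was called when each clonotype was counted once, in the fit of 23 libraries, with no filter on the share, or without PLX+PTX replicate 5 or WTNT replicate 3. Over 18 alternative fits 11 residues was called in 12 and 16 residues in 10. Mean CDR3 length was 13.80 residues ± 0.02 in PLX+PTX and 13.79 ± 0.01 in WTNT (exact permutation p = 0.561).

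**Figure D5:**
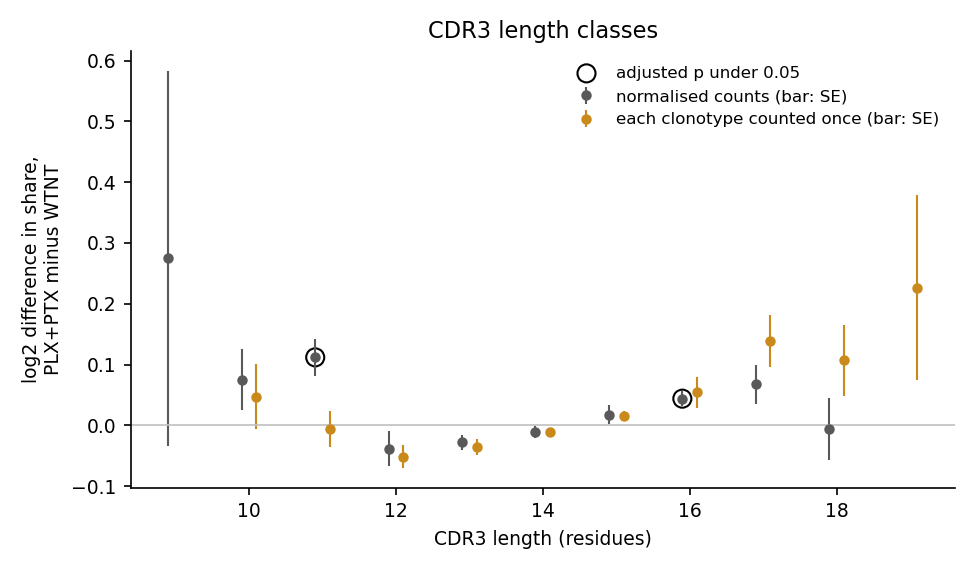
Log2 difference in the share of each CDR3 length, PLX+PTX minus WTNT, from normalised counts (grey) and with each clonotype counted once (orange); bars are the SE and open circles mark an adjusted p under 0.05 in limma. The circles at 11 and 16 residues belong to normalised counts alone.

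No measure of junction make-up passed. Amino acid triplets inside the CDR3 gave 0 calls of 881 in limma (0%), with 40 at an unadjusted p under 0.05. Lowest in PLX+PTX was LRQ, at 0.233% ± 0.006 against 0.296% ± 0.029 of normalised counts with no overlap (log2 difference -0.32, adjusted p = 0.366), then TSN (-0.44, adjusted p = 0.526) and LRL (-0.27, adjusted p = 0.773). Highest were SFS (0.39), a triplet of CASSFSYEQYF, LST (0.43) and STD (0.51, adjusted p = 0.772 each), and SFS passed without WTNT replicate 1 (0.50, adjusted p = 0.0393). TRBD1 motifs were present in 5.53% ± 0.21 and 5.39% ± 0.06 of normalised counts, and TRBD2 motifs in 10.5% ± 0.4 and 10.2% ± 0.1. Hydrophobic residues at positions 6 and 7, a known trait of self-reactive CDR3s, marked 1.54% ± 0.11 and 1.47% ± 0.06. A cysteine anywhere after the first CDR3 residue marked 7.10% ± 0.37 and 7.07% ± 0.32. This includes cysteines of the V segment, such as the one that TRBV1 gives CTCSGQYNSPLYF. TRBV1 held 6.97% ± 0.37 and 6.93% ± 0.32 of normalised counts, and the cysteine share outside TRBV1 was not computed. Nucleotide forms per amino acid clonotype were averaged in thinned libraries with normalised counts as weights. The mean was 1.248 ± 0.048 in PLX+PTX and 1.257 ± 0.022 in WTNT. Exact permutation p-values of these 5 measures ran from 0.167 to 0.905.

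Measures of the joining step, added after the data were seen, also overlapped. Rearrangements with a called TRBD segment carried 2.85 ± 0.02 inserted bases on average in PLX+PTX and 2.87 ± 0.01 in WTNT (exact permutation p = 0.102), and 14.7% ± 0.6 against 14.2% ± 0.3 carried none (exact permutation p = 0.0736). The 4 PLX+PTX mice of the lower number range lay 0.831 percentage points above WTNT with no overlap, and the 2 of the higher range 0.00122 points above it. For the 4 the difference passed (exact permutation p = 0.00794, the smallest possible there, adjusted p = 0.0238 over these 3 measures). Trimming of the V segment averaged 2.95 and 2.96 bases (exact permutation p = 0.636).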

How the data were processed

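Per the file headers, each deposited table lists the V, D and J segments, CDR3 and reads of every clonotype. The deposited clone count is in counts of reads. The authors also deposited 2 scores made from it, a normalized and an nb clone count, by a factor per V and J pair. How the factor was derived is not given in the sources used here, nor are caller and build. Members, lists and tests were chosen with earlier results of these data known. Groups follow the treatment and day labels. Since labels name 1 library per mouse, p-values measure the spread between mice. Scalar measures were compared by exact permutation of mice (2-sided, Benjamini-Hochberg over 13 measures, or over the 3 added ones). Segments, pairs, lengths and 3-mers with a mean share of at least 0.1% were tested with limma 3.58.1 (R 4.3.3) on log2(percent + 0.01), and clonotypes of at least 6 libraries on log2(CPM + 10) with a variance trend. The threshold was an adjusted p of 0.05. Reads are not independent molecules, so edgeR 4.0.16 and DESeq2 1.42.0 on reads were alternatives, besides raw reads, clonotypes counted once, other filters and pseudocounts, and leaving out each mouse. Named items passed the threshold, were the 3 of lowest p per direction, led a library, or were found in all mice of 1 or both groups (5 each by CPM). The fits were tested on simulated data. Floors are 3 reads per library, averaged over the group. Intervals are 95% Wilson. CDR3s over 14 residues are named by segments and length.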

Additional observations from a re-analysis of the deposited data

Results flagged for a closer look

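Samples far from the rest of their group, by the gap to the nearest other mouse against the range, were found in 4 of 96 groups of values. Chance alone flags about 1 in 20. The clonality of PLX+PTX replicate 2 was 0.0674, and the nearest other PLX+PTX mouse was at 0.0594. The share in public clonotypes of the other d105 mice was 12.05% in PLX+PTX replicate 4, below the nearest at 13.1%. TRBV24 held 8.53% of normalised counts in PLX+PTX replicate 1, above the nearest at 7.24%. TRBV19 made up 8.61% of listed clonotypes in WTNT replicate 3, below the nearest at 8.97%.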

How the results depend on the processing

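Beside exchanging the count, results were recomputed with other filters, pseudocounts and tools, with each mouse left out and within each mouse-number range. No paired analysis was possible because PLX+PTX and WTNT mice share no animal or batch label, and replicate numbers follow accession order. Differences are PLX+PTX minus WTNT, and the cause of a change was not tested.

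In raw reads the share in expanded clonotypes (-0.0670 percentage points), the share of the 10 most abundant clonotypes (-0.0281) and mean CDR3 length (-0.00689 residues) reversed; mean CDR3 length also reversed in the nb clone count (-0.00290) and in the lower number range (-0.00461). With only the 2 PLX+PTX mice of the higher number range, richness at equal depth (6544 clonotypes), nucleotide forms per amino acid clonotype (0.0104), the share with an inner cysteine (-0.356), the share of TRBJ1 segments (-0.233) and TRBV1 (-0.0718) reversed. Clonotypes of at least 10 reads reversed nucleotide forms per amino acid clonotype (0.00571), the share with an inner cysteine (-0.148) and the share of TRBJ1 segments (-0.488). In the lower range the share in public clonotypes of other mice reversed (0.239). Mean V segment trimming reversed with clonotypes counted once (0.00214), as did 11 residues (-0.00599 on log2).

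Called features in V and J segment usage numbered 11 with clonotypes counted once, 9 of these thinned and 3 at 10 reads or more. V-J pair usage gave 9 once. CDR3 length classes gave 0 in the fit of 23 libraries, counted once, with no filter and in the higher range, and 1 in the lower. For shared clonotypes, 0 were called with 23 libraries, in edgeR, by Fisher's exact test of presence, from 3 libraries or 80% of libraries on, without a variance trend and in the higher range; 14 were called in DESeq2, and on raw and thinned reads 2 each, neither being the clonotype called in normalised counts. With 11 mice Fisher's test has few possible p-values and was adjusted over 31947 clonotypes, so it had almost no room for a call. The overlap between mice by Jaccard index was 0.000419.

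Leaving out each mouse gave richness at equal depth of -8041 to 458, nucleotide forms per amino acid clonotype of -0.0237 to 0.00459, share with an inner cysteine of -0.0913 to 0.119, share in public clonotypes of other mice of -0.0933 to 0.187 and share of TRBJ1 segments of -0.0117 to 0.294. Clonality was 0.00244 to 0.00485 and the share of segments deleted in FVB/N -0.0945 to -0.0293. The share in expanded clonotypes stayed at 0.305 to 0.393. The overlap between mice ran from 0.00460 to 0.0147, with exact permutation p-values of 0.00794 to 0.543. Called numbers ran from 0 to 1 in V and J segment usage (3 to 12, namely 3, 4, 6, 8, 11 or 12, counted once), 0 to 3 in CDR3 length classes, 0 to 1 in CDR3 3-mers and 0 to 2 in shared clonotypes. TRBV1 in normalised counts ranged from -0.0174 (without PLX+PTX replicate 1) to 0.0272 (without WTNT replicate 3), and was -0.00012, -0.0072 and -0.0071 without WTNT replicate 2, 4 or 5. TRBV23, counted once, reversed to 0.0188 without PLX+PTX replicate 6 and 0.0163 without WTNT replicate 2. The alternatives for clonotypes counted once (thinned, at 10 reads, leaving out mice), the fit without a trend, the omission of a segment pair and the measures of joining were chosen after seeing the data. A library without a read of a clonotype allows up to 3, so such levels are bounds.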
